A study of Drosophila melanogaster with 2 samples.

Results

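A set of 10 genes of the muscle thin filament and the Z-disc was examined in whole adult males of *Drosophila melanogaster*, and none of them differed by 2-fold between *heph2* and control flies. The genes were chosen by name, and all 10 of them were found among the 14794 genes of the expression table. Of these, 5 encode parts of the thin filament (*Tm1*, *Tm2*, *up*, *wupA* and *tmod*) and 5 encode Z-disc or associated proteins (*Actn*, *Zasp52*, *Zasp66*, *Mlp60A* and *Mlp84B*). The RNA came from males aged 1 to 3 days after eclosion. One library was made from *heph2* homozygotes and one from *heph2/TM3* males, which served as the wild-type control. *heph* encodes the *Drosophila* polypyrimidine tract-binding protein, an RNA-binding regulator of splicing, and *heph2* is a male-sterile *P* element insertion in an intron of the gene. Both groups therefore carried a *heph2* chromosome, and the control males also carried *TM3*, a balancer form of chromosome 3. There was 1 library per genotype, so no difference has a replicate check, no p-value was computed, and each comparison is between these 2 libraries.

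In striated muscle the thin filament is a polymer of actin along which tropomyosin lies as a continuous cable. Troponin, made of the subunits T, I and C, moves tropomyosin in response to calcium and so opens the actin filament to myosin. Tropomodulin caps the pointed end of the filament, while the barbed end is anchored at the Z-disc, where alpha-actinin crosslinks filaments of neighboring sarcomeres. PDZ and LIM domain proteins bind alpha-actinin or sit beside it. *Drosophila* has fibrillar flight muscle, which is activated by stretch, and tubular muscle in the legs, jump muscle and body wall. Some thin filament proteins differ between these kinds. A whole fly holds both, together with visceral muscle and cells that are not muscle.

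Expression was measured as FPKM, in which the fragments of a gene are divided by the length of its transcripts and scaled to its library. The levels of different genes are therefore comparable per length. The FPKM of a gene pools all of its transcripts. The targeted gene, *heph*, had 44.0 FPKM in control and 27.2 FPKM in *heph2* males, a log2 ratio of -0.69. The paper reports that reads fell steeply past the *P* element and that nearly all *heph* transcripts were truncated in *heph2*. The pooled value counts truncated transcripts too, so it does not give the level of full-length *heph* mRNA. Of the 14794 genes, 11962 averaged 1 FPKM or more, were above 0 in each library, and were compared. Their median log2 ratio (*heph2* over control) was 0.01, and 50% of them lay between -0.24 and 0.29. This picture changed with the level of the gene. The 1897 genes that averaged 100 FPKM or more, called abundant genes from here on, had a median of 0.32, with 50% of them between 0.09 and 0.56. All 10 thin filament and Z-disc genes were above 100 FPKM in both libraries, so they are read against the abundant genes as well as against all genes. The zero of the scale also depended on how the libraries were scaled. The deposited FPKM values summed to more in *heph2* than in the control, and bringing both libraries to the same total took 0.28 from every log2 ratio, which placed the median of all genes at -0.27 and that of the abundant genes at 0.04.

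Whole males gave RNA of many tissues. The summed level of 8 testis markers was 3025 FPKM in control and 5003 FPKM in *heph2* males. Of the 7 that were compared, 4 were higher (*Mst87F*, *dj*, *Mst35Ba* and *Mst35Bb*, with log2 ratios of 0.58 to 0.86) and 3 lower (*aly*, *can* and *sa*, -0.23 to -0.01), and none reached 2-fold. The summed level of 5 accessory gland markers was 10854 FPKM and 6311 FPKM. All 5 were lower, 2 of them (*Acp36DE* and *Acp70A*) by 2-fold or more. The 6 gut markers summed to 2217 FPKM and 2957.0 FPKM, with all 6 higher and 1 (*Jon99Ci*) higher by 2-fold or more. The 5 neuronal markers summed to 94.1 FPKM and 85.7 FPKM. Of the 4 compared, 1 was higher and 3 lower, and none reached 2-fold. No gene of these lists was listed at 0. The 6 genes of the fat body list, which includes the female-enriched yolk protein genes, summed to 337 FPKM and 701 FPKM. Of these, 3 were lower (*Yp1*, *Yp2* and *Yp3*) and 2 higher (*Lsp2* and *Fbp1*) by 2-fold or more. The largest difference was that of *Yp1*, from 40.2 FPKM to 1.18 FPKM. The part of these tissue differences in the levels of muscle genes was not tested. In whole flies, a difference in the number of muscle cells and one in RNA per muscle cell cannot be told apart.

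**Figure D1:**
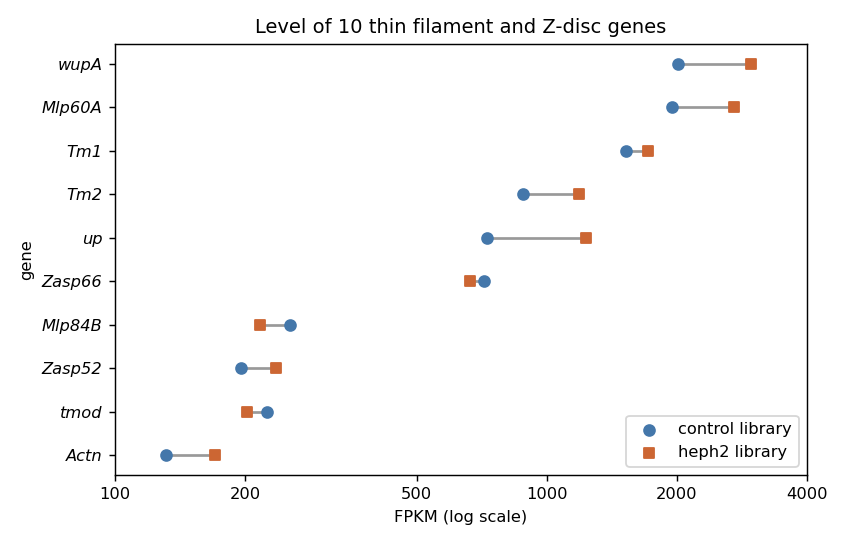
The plot of levels shows the FPKM of the 10 genes on a log axis, with 1 point for the control library and 1 for the *heph2* library of each gene. The levels ran from 131 FPKM (*Actn*, control) to 2966 FPKM (*wupA*, *heph2*), and the step between the libraries was small beside the differences between genes.

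The troponin genes had the largest log2 ratios of the 10 in the deposited values, but relative to genes matched on length and level *wupA* (0.30) lay below *Actn* (0.43) and *Zasp52* (0.31). *up*, which encodes troponin T, the subunit that ties the troponin complex to tropomyosin, had 728 FPKM in control and 1232 FPKM in *heph2* males. This was a 1.69-fold higher level, or a log2 ratio of 0.76. It lay above 86.9% of the abundant genes and 94.9% of all genes compared. *wupA*, which encodes troponin I, the inhibitory subunit, had 2015 FPKM in control and 2966 FPKM in *heph2* males, a log2 ratio of 0.56 and 1.47-fold. It was the most abundant of the 10 genes in both libraries, at rank 65 of all genes in the control and rank 64 in *heph2*. Both troponin genes stayed higher in *heph2* under each scaling tried, with log2 ratios of 0.47 for *up* and 0.27 for *wupA* at the same total FPKM, and of 0.32 and 0.12 relative to 85 cytosolic ribosomal protein genes. *up* was the only gene of the 10 that was at least 1.5-fold higher, and it no longer was under these 2 scalings. Of all genes compared, 9.16% were at least 1.5-fold higher, and of the abundant genes 23.1% were. None of the 10 was at least 1.5-fold lower, beside 7.26% of all genes and 4.43% of the abundant genes, although relative to the ribosomal protein genes *Mlp84B* (-0.67) and *tmod* (-0.59) were.

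The tropomyosin genes lie side by side on chromosome 3R, with 2212 bases between their loci, and their ratios were smaller. *Tm1* had 1527 FPKM in control and 1719.6 FPKM in *heph2* males, a log2 ratio of 0.17. *Tm2* had 882 FPKM and 1186 FPKM, giving a log2 ratio of 0.43. *Tm1* encodes muscle and cytoskeletal tropomyosins and the heavy troponin forms of flight muscle, whereas *Tm2* encodes muscle tropomyosin. *Tm1* was the more abundant in both libraries, by 1.73-fold in the control and 1.45-fold in *heph2*. The direction of these ratios was not stable, since *Tm1* was at -0.11 at the same total FPKM, and *Tm1* and *Tm2* were at -0.27 and -0.01 relative to the ribosomal protein genes.

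*tmod*, which encodes tropomodulin, differed in direction from the other thin filament genes. It had 224 FPKM in control and 202 FPKM in *heph2* males, which is 1.11-fold lower and a log2 ratio of -0.15. Only 11.1% of the abundant genes had a lower ratio. The summed level of *Tm1* and *Tm2* stood 10.7-fold above that of *tmod* in the control and 14.4-fold above it in *heph2*, a comparison within each library that does not depend on the scaling between libraries.

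At the Z-disc, *Actn* and *Zasp52* had similar ratios. *Actn*, the alpha-actinin gene, had 131 FPKM in control and 171 FPKM in *heph2* males, a log2 ratio of 0.38. *Zasp52*, whose PDZ and LIM domain protein binds alpha-actinin, had 196 FPKM and 236 FPKM, giving a log2 ratio of 0.27. These 2 genes were the ones with the longest transcripts of the 10, and relative to genes matched on length and level their log2 ratios were 0.43 and 0.31. At the same total FPKM they were 0.10 and -0.01, and relative to the ribosomal protein genes -0.06 and -0.17. The ratio of *Zasp52* to *Actn* was 1.49 in the control and 1.38 in *heph2*.

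*Zasp66*, a second PDZ domain gene of the Z-disc, was the more abundant *Zasp* gene, with 714 FPKM in control and 664 FPKM in *heph2* males. Its log2 ratio was -0.10, and 13.0% of the abundant genes had a lower one. The ratio of *Zasp66* to *Actn* was 5.46 in the control and 3.90 in *heph2*, and that of *Zasp66* to *Zasp52* was 3.65 and 2.82. The 2 *Zasp* genes were thus unequal in their differences, with *Zasp66* 1.29-fold lower relative to *Zasp52* in the *heph2* library.

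The muscle LIM protein genes differed in direction. *Mlp60A*, which encodes a small protein with a single LIM domain, had 1954 FPKM in control and 2710.3 FPKM in *heph2* males, a log2 ratio of 0.47. *Mlp84B*, which encodes a protein with several LIM domains at the Z-disc, had 254 FPKM and 216 FPKM, 1.18-fold lower and a log2 ratio of -0.23. This was the lowest ratio of the 10 genes, and 9.44% of the abundant genes lay below it. *Mlp60A* stood 7.69-fold above *Mlp84B* in the control and 12.5-fold above it in *heph2*, a 1.63-fold difference between the libraries.

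**Figure D2:**
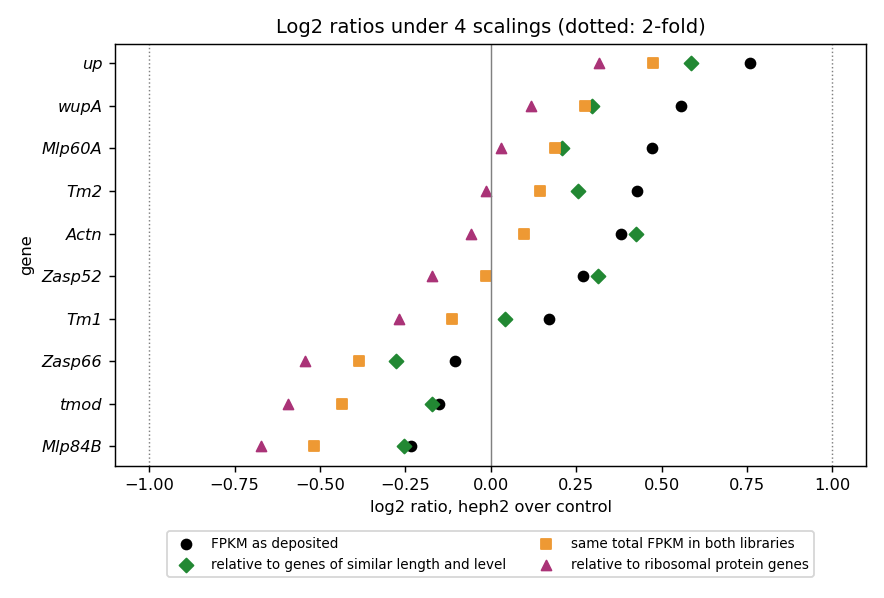
The plot of scalings gives the log2 ratio (*heph2* over control) of each gene as deposited, relative to genes matched on transcript length and mean FPKM, at the same total FPKM, and relative to the ribosomal protein genes, with dotted lines at 2-fold. No gene reached 2-fold under any of the 4 scalings, *up* (0.32 to 0.76), *wupA* and *Mlp60A* stayed above 0, and *Mlp84B*, *tmod* and *Zasp66* stayed below 0.

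As a group, 0 of the 10 genes were at least 2-fold higher or lower in *heph2*. Among all genes compared, 2.79% were higher and 2.44% lower by that much, and among the abundant genes 7.49% were higher and 1.79% lower. The median log2 ratio of the 10 genes was 0.33, beside 0.32 for the abundant genes and 0.01 for all genes. The 5 thin filament genes had a median of 0.43 and the 5 Z-disc genes one of 0.27. With 7 of 10 genes above 0, the share was larger than the 51.5% of all genes and smaller than the 81.8% of abundant genes that were above 0. This count was 5 of 10 at the same total FPKM and 3 of 10 relative to the ribosomal protein genes. Of the 10 genes, 6 lay within the middle 50% of the abundant genes, 1 above it (*up*) and 3 below it (*tmod*, *Zasp66* and *Mlp84B*). The 10 genes together had 8625 FPKM in control and 11303 FPKM in *heph2* males, which was 0.757% and 0.815% of all FPKM.

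Differences between the genes in the deposited values are left as they are by a scaling that takes 1 amount from every log2 ratio, though not by matching on length and level. Of the 45 pairs among the 10 genes, 11 had a ratio that differed at least 1.5-fold between the libraries, and 0 reached 2-fold. Of all pairs of abundant genes, 33.7% differed at least 1.5-fold, beside 24.4% for the pairs of the 10 genes. The largest difference was that of *up* to *Mlp84B*, whose ratio was 2.86 in the control and 5.70 in *heph2*, a 1.99-fold difference. The ratio of *wupA* to *up*, the 2 troponin subunits, was 2.77 in the control and 2.41 in *heph2*.

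Reads behind these values were many. Worked out from the steps of the low FPKM values, each of the 10 genes had between about 20201 (*Actn*) and 111968 (*Tm1*) reads in the control and between about 14297 (*Mlp84B*) and 94831 (*Mlp60A*) in *heph2*. Counting error alone gave the log2 ratios a standard error of 0.006 to 0.015. This covers the counting of reads only and not the spread between flies of 1 genotype, which 1 library per genotype cannot give.

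Some properties of the genes moved with their ratios. Across the 10 genes the log2 ratio and the median transcript length had a Spearman correlation of -0.52 and, on log length, a Pearson correlation of -0.39. Across the abundant genes with a known length the Spearman correlation was -0.29. These are descriptions across genes that share 2 libraries. The 6 genes with transcripts of 1000 to 2000 nucleotides had a median log2 ratio of 0.45, beside 0.25 for 657 abundant genes of that length. *tmod* and *Mlp84B*, with 2000 to 3000 nucleotides, had a median of -0.19, beside 0.12 for 160 abundant genes. *Actn* and *Zasp52*, with over 3000 nucleotides, had a median of 0.33, beside 0.08 for 51 abundant genes, so the 10 genes showed no steady decline with length. Relative to genes matched on length and level, the median of the 10 genes was 0.23, 7 of them were above 0, and *up* was the highest at 0.59. The order of the others differed from that of the deposited values. *Actn* (0.43) and *Zasp52* (0.31) came before *wupA* (0.30), *Mlp60A* was at 0.21, and *Zasp66* (-0.28) rather than *Mlp84B* (-0.25) was the lowest.

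The 5 genes on chromosome 3 (*Tm1*, *Tm2*, *tmod*, *Zasp66* and *Mlp84B*) had a median log2 ratio of -0.10, and the 5 genes on chromosomes X and 2R (*up*, *wupA*, *Actn*, *Zasp52* and *Mlp60A*) one of 0.47. The groups overlapped through *Tm2* alone, whose 0.43 lay above *Actn* and *Zasp52*. Among abundant genes the medians were 0.30 for 808 genes of chromosome 3 and 0.34 for 1074 genes of chromosomes X, 2 and 4. The 211 abundant X-linked genes had a median of 0.49, beside 0.76, 0.56 and 0.38 for *up*, *wupA* and *Actn*. The control males carried *TM3* and the *heph2* males did not. An effect of the balancer and one of *heph2* therefore cannot be told apart for any gene, on chromosome 3 or elsewhere. This division by chromosome was chosen after the values were seen.

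**Figure D3:**
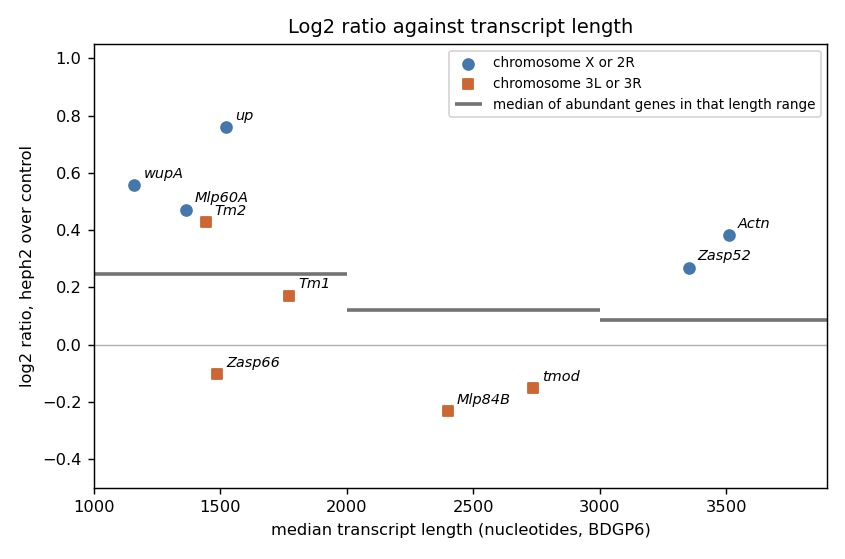
The plot against transcript length shows the log2 ratio (*heph2* over control) of each gene over the median length of its BDGP6 transcripts, colored by chromosome, with gray lines at the median of the abundant genes of each length range (0.25, 0.12 and 0.08). The 3 genes below 0 are all on chromosome 3, and *Actn* and *Zasp52* lie above the line for transcripts of over 3000 nucleotides.

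Other genes of the same structures set these small differences in context. Beside the counts of every list, 2.79% of all genes compared were higher and 2.44% lower by 2-fold or more. Among abundant genes these shares were 7.49% and 1.79%. Of 13 other thin filament genes, 2 were higher and 0 were lower by 2-fold or more, with a median log2 ratio of 0.08. The 2 were *Act88F*, the flight muscle actin, from 1106 FPKM to 5100.0 FPKM, and *TpnC4*, the troponin C of stretch activation in flight muscle, from 441 FPKM to 2299 FPKM. The paper had already reported both as upregulated from these libraries. With *fln*, a flight muscle thick filament protein, they were the 3 markers of fibrillar muscle. These markers had a median log2 ratio of 2.38 and a summed level of 2103 FPKM in control and 10968 FPKM in *heph2* males. As 2 of the 3 were known to be higher, the high median of this list adds little to the paper's result. The 3 tubular muscle markers (*Act79B*, *Act57B* and *TpnC41C*) had a median of 0.02 and a summed level of 6334 FPKM and 6736 FPKM.

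Within each library, flight muscle partners therefore stood differently against the common thin filament genes. *TpnC4* was 0.606 times as abundant as *up* in the control and 1.87 times as abundant in *heph2*, a 3.08-fold difference. The 5 troponin C genes together stood 3.85-fold above *up* in the control and 4.31-fold above it in *heph2*. *Act88F* was 0.459 times the sum of *Tm1* and *Tm2* in the control and 1.76 times that sum in *heph2*, while the 4 muscle actins together were 2.85 and 3.68 times that sum. The sum of *Tm1* and *Tm2* over *up* was 3.31 in the control and 2.36 in *heph2*. Of the proportions given here, those with summed families differed by at most 1.40-fold between the libraries. Those of the single flight muscle genes differed by 3.08-fold or more. The limit of 1.40-fold does not cover troponin C against tropomyosin. The 5 troponin C genes summed to 2806 FPKM in control and 5304 FPKM in *heph2*, and *Tm1* and *Tm2* to 2409 FPKM and 2906 FPKM.

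**Figure D4:**
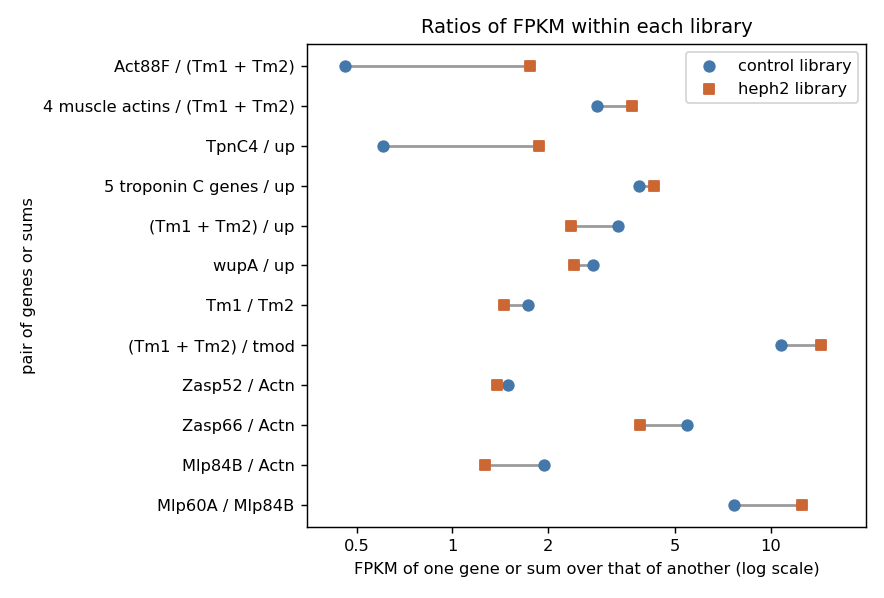
The plot of ratios within each library gives the FPKM of a gene or sum of genes divided by that of another on a log axis, with 1 point per library. *Act88F* over the tropomyosins (0.459 and 1.76) and *TpnC4* over *up* (0.606 and 1.87) are the widest steps, and *Zasp52* over *Actn* (1.49 and 1.38) is the narrowest.

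Of 9 other Z-disc genes found out of 10 listed, 1 was higher and 0 were lower by 2-fold or more, and the median log2 ratio was -0.03. The 1 gene was *Zasp67*, listed under the older symbol *CG14168*, the third *Zasp* gene, from 4.65 FPKM to 19.6 FPKM, with a log2 ratio of 2.08. The next largest was *Fhos*, a formin that assembles actin, from 19.6 FPKM to 38.6 FPKM, with a log2 ratio of 0.98. *sls*, which encodes the elastic proteins kettin and Sallimus that reach from the Z-disc to the thick filament, had 10.1 FPKM and 8.36 FPKM. Its ratio to *Actn* was 0.0769 in the control and 0.0490 in *heph2*. The 3 *Zasp* genes thus had log2 ratios of 0.27 (*Zasp52*), -0.10 (*Zasp66*) and 2.08 (*Zasp67*).

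Of 8 thick filament and M-band genes found out of 9 listed, 1 (*fln*) was at least 2-fold higher, and the median log2 ratio was 0.45, close to the 0.43 of the 5 thin filament genes. The next largest ratio was that of *Mlc2*, the myosin regulatory light chain gene, at 0.76, which is the ratio of *up* to 2 decimals. The 10 muscle attachment genes had a median of -0.14, with 1 of them above 0, where 51.5% of all genes compared were above 0, and none past 2-fold. The ratios farthest from 0 were those of *Pax*, the paxillin gene, at -0.49 (227 FPKM in control and 162 FPKM in *heph2*) and *wech* at -0.35. *wech* had only 1.23 FPKM and 0.965 FPKM, close to the limit for comparison. Of 11 myofibril chaperones and muscle regulators found out of 13 listed, 1 was at least 2-fold higher. It was *stv*, a co-chaperone gene of the Z-disc, at 1.17, and the median was 0.17. The 10 non-muscle actomyosin genes found out of 11 had a median of 0.15, with none past 2-fold and ratios from -0.21 to 0.46 (*tsr*, the cofilin gene).

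**Figure D5:**
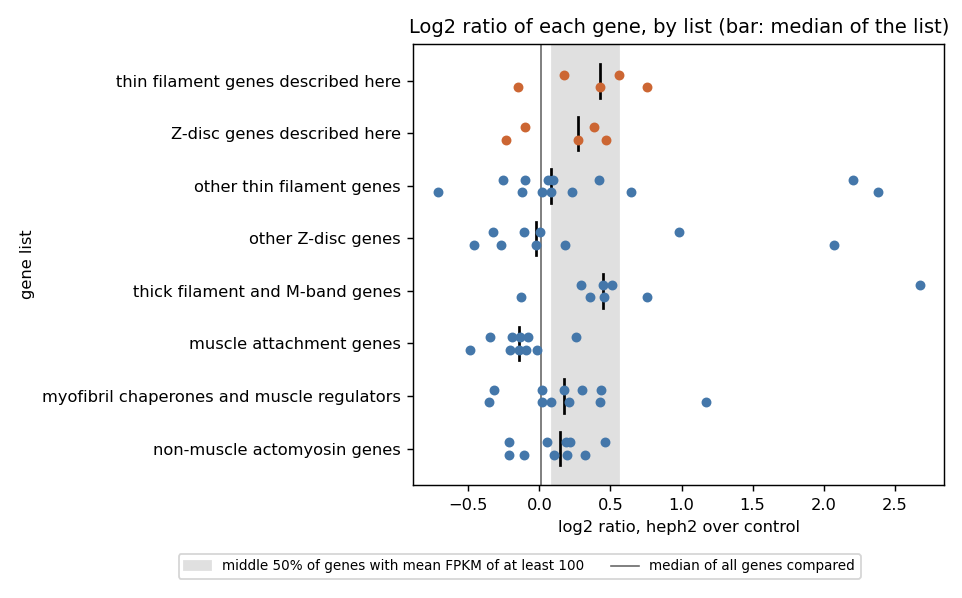
The plot by list shows the log2 ratio (*heph2* over control) of each gene found, in rows by list, with a black bar at the median of the list, a gray band for the middle 50% of the abundant genes (0.09 to 0.56) and a line at the median of all genes (0.01). The 10 thin filament and Z-disc genes lie in or near the band, and *Act88F*, *TpnC4*, *fln* and *Zasp67* lie beyond 2.

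The loci are given in r5.44 coordinates. The thin filament genes are *Tm1* (FBgn0003721, chromosome 3R from 11107254 to 11133702), *Tm2* (FBgn0004117, 3R from 11135915 to 11140920), *up* (FBgn0004169, X from 13487610 to 13496536), *wupA* (FBgn0004028, X from 17999586 to 18010855) and *tmod* (FBgn0082582, 3R from 26358336 to 26404627). The Z-disc genes are *Actn* (FBgn0000667, X from 1919127 to 1936344), *Zasp52* (FBgn0083919, 2R from 11650070 to 11704314), *Zasp66* (FBgn0035917, 3L from 8617473 to 8631773), *Mlp60A* (FBgn0259209, 2R from 19962536 to 19965746) and *Mlp84B* (FBgn0014863, 3R from 2919760 to 2949907). *Tm1*, *Tm2*, *up*, *wupA* and *Mlp60A* were alone in their locus entry. The others shared it with 1 or 2 genes, so that their positions are those of the shared region. The shared genes had at most 12.2 FPKM in either library, except in the entry of *Mlp84B*. There the higher value of the 2 shared genes was 50.3 FPKM in control and 85.1 FPKM in *heph2* males, each taken within its library. The annotation used for lengths (BDGP6) lists between 3 transcripts (*Mlp84B*) and 22 transcripts (*Zasp52*) for these genes, 18 of them each for *Tm1*, *up* and *tmod*, and changes among isoforms cannot be seen in values per gene.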

How the data were processed

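Polyadenylated RNA of whole males was sequenced as single reads of 50 bases, with 1 library per genotype. The authors mapped the reads with TopHat 2.0.4 to the FlyBase r5.44 annotation, ran Cufflinks 2.0.0, and deposited for each gene 1 FPKM value in each library. A deposited column holds the log2 ratio of both values, which was not used. All other values were computed here from the FPKM values with Python 3.11.15, numpy 2.4.6, pandas 2.3.3 and scipy 1.17.1, and tested on simulated data.

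Log2 ratios had no pseudocount. Genes were compared where they averaged 1 FPKM or more and were above 0 in each library. The alternatives were pseudocounts of 0.1 and 1, a minimum of 10 FPKM and no minimum, centring on all genes, on ribosomal protein genes or on bins of transcript length (10) and level (5), only genes alone in their locus, and the same total FPKM. The test of Cufflinks needs reads and could not be repeated.

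Transcript lengths came from BDGP6, matched by gene identifier for 13462 genes and by symbol for 411 more, so that 95.3% of the genes compared and 96.6% of the abundant genes had a length. The starts of loci were taken as counted from 0, as 1503 of 8967 genes alone in their locus then had their BDGP6 length, against 151 otherwise, and 1 was added. The FPKM of 1 read on 1 kilobase was found as the step of low values, 0.0214 in the control and 0.0333 in *heph2*, with a fragment length of 200 ± 80 bases. With it, 60.5% of 496 and 61.2% of 593 low genes fell within 0.1 of a whole read. Reads per gene are thus approximate.

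The genes and lists were chosen with earlier results of these data known. All 10 genes were named, and of other lists at most the 2 largest ratios and partners of these genes. Names in the lists were matched exactly, or by gene identifier where the symbol had been renamed. The set of abundant genes and the scaling to the same total FPKM were added after the data were seen. No sequence was used here.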

Additional observations from a re-analysis of the deposited data

How the results depend on the processing

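No gene of the 10 moved by over 1.5-fold in any of 85 values under 9 alternatives, and none reached 2-fold in any of them. Most of these values could not have moved that far. The limits on FPKM and locus leave the ratio of a gene as it is, and the pseudocounts are small beside these levels. Centring on all genes, the same total FPKM and centring on ribosomal protein genes took 0.01, 0.28 and 0.44 from every log2 ratio. Each of these amounts is below 1.5-fold. A sign changed in 6 of the 85 values, 4 of them relative to the ribosomal protein genes (*Tm1*, *Tm2*, *Actn*, *Zasp52*) and 2 at the same total FPKM (*Tm1*, *Zasp52*). Relative to the ribosomal protein genes, 3 of the 10 genes were higher in *heph2*, 0 were at least 1.5-fold higher, their median log2 ratio was -0.12, and 0.869% of all genes compared were higher and 7.86% lower by 2-fold or more. At the same total FPKM, 0 genes were at least 1.5-fold higher, the median was 0.042, and 1.40% and 5.02% of all genes were at least 2-fold higher and lower. Relative to genes matched on length and level, 1.80% of all genes were at least 2-fold higher. With only the 5 genes alone in their locus the median was 0.47, since this leaves 5 of the 10 genes. A pseudocount of 1 left 1.54% of all genes at least 2-fold lower, and no minimum FPKM gave 4.21%. The limits include the single library per genotype, the choice of scaling and the *TM3* chromosome of the control.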
